A study of Malus domestica with 9 samples.

Results

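A small set of genes in apple fruit peel stood far higher after 6 h of light than at 0 h and was at about the same level after 24 h. These 41 genes were chosen from the 46558 genes of the deposited table by the values themselves: on the scale of log2(mean FPKM + 1), a gene had to be at least 3 units above 0 h at 6 h and again at 24 h, and its levels at 24 h and 6 h had to lie within 1 unit of each other. FPKM are fragments per kilobase of transcript and per mega mapped fragments. A mean of at least 1 FPKM over the 9 libraries was also asked for, which 25362 genes had. This limit could remove none of the genes that met the others, given the levels those require in light. The size of the rises, the agreement of both light times and the high level in light are therefore how the genes were picked and not results. The rule allows no level under 7 FPKM at 6 h or 24 h.

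The libraries came from the peel of Malus domestica fruit that had been grown in bags. Peel was taken at 0 h, 6 h and 24 h of light after the bags came off, with 3 libraries at each time that the submitters call biological replicates. The labels name no cultivar or fruit age. Nor do they tell how many fruit or trees stand behind a library, so SDs and SEs measure only the spread between these libraries, which may be technical. No fruit that stayed in its bag was sampled at the later times, so light cannot be told apart from bag removal and, at 6 h, from the time of day. Since the samples are whole peel, more RNA per cell and more cells of a type cannot be told apart either.

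An apple kept in a bag makes little red pigment in its skin, and the peel stays pale or green. Once the bag is removed, photoreceptors in the skin cells sense the light and change the activity of many genes, among them those that make anthocyanins, the red pigments of apple skin. Some plant genes answer light with a short surge, others with a lasting step to a new level, and the 41 genes here were chosen for a step. The deposited table identifies genes by apple locus identifiers alone. None of the 41 identifiers occurs in the RefSeq gene table of assembly GDT2T_hap1 (51804 genes), so no name, role or sequence is attached to any of them, and the markers of peel could not be looked up. Genes that share reads with a near-identical copy cannot be recognised either, and their values are uncertain.

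Few genes followed this course. A rise of at least 3 units at 6 h was met by 294 of the 25362 tested genes (1.16%), one at 24 h by 415 (1.64%), and both by 70 (0.276%). Of these 70 genes, the 41 members (0.162% of the tested genes) kept their level, 15 were at least 1 unit higher at 24 h than at 6 h, and 14 were at least 1 unit lower. All 41 members had every 6 h library above every 0 h library, as had 35.8% of the tested genes, and every 24 h library above every 0 h library, as had 34% of them. By limma, with a call at a Benjamini-Hochberg adjusted p under 0.05 and a difference of at least 1 log2 unit, all 41 were called higher at 6 h (9.36% of tested genes) and all 41 at 24 h (11.9%). None was called between 24 h and 6 h, where 16.5% of the tested genes were; a gap of under 1 unit between these times was common, with 83.6% of the tested genes. The rule used the same comparisons, so nothing follows from these counts, and no p-value of a member is given.

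**Figure D1:**
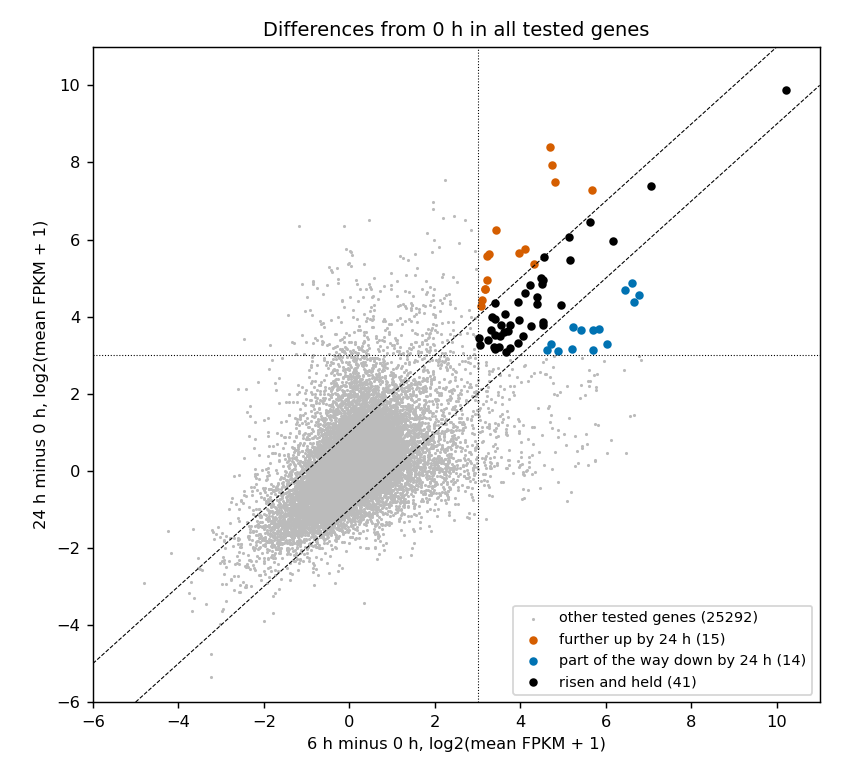
Difference from 0 h at 6 h (horizontal) and at 24 h (vertical) for each tested gene, as log2(mean FPKM + 1). Dotted lines mark the limit of 3 and dashed lines a distance of 1 between the light times; the 41 black members lie between the dashed lines, with 15 genes above and 14 below them, and MD10G1328100 stands alone at the upper right.

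Through the way they were chosen, the 41 genes together took a far larger share of the table in light than in the dark. The rule sets the direction of the rises below, which describe the members and test nothing. They held 0.0324% ± 0.00314 of the summed FPKM of all genes at 0 h. In light the share was 0.876% ± 0.0881 after 6 h and 0.887% ± 0.0137 after 24 h, each from 3 libraries with its SD. The median member stood at 1.58 FPKM at 0 h, 46.8 FPKM at 6 h and 44.7 FPKM at 24 h, while the medians of all tested genes were 8.23, 8.71 and 8.88 FPKM. The median differences from 0 h were 3.95 log2 units at 6 h and 3.92 at 24 h in the members, against 0.01 at both times in all tested genes. A few genes carried most of the total: the 4 highest members held 49.5% of the members' summed FPKM at 6 h and 46.7% at 24 h, and the 10 highest held 76.4% and 78.5%.

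**Figure D2:**
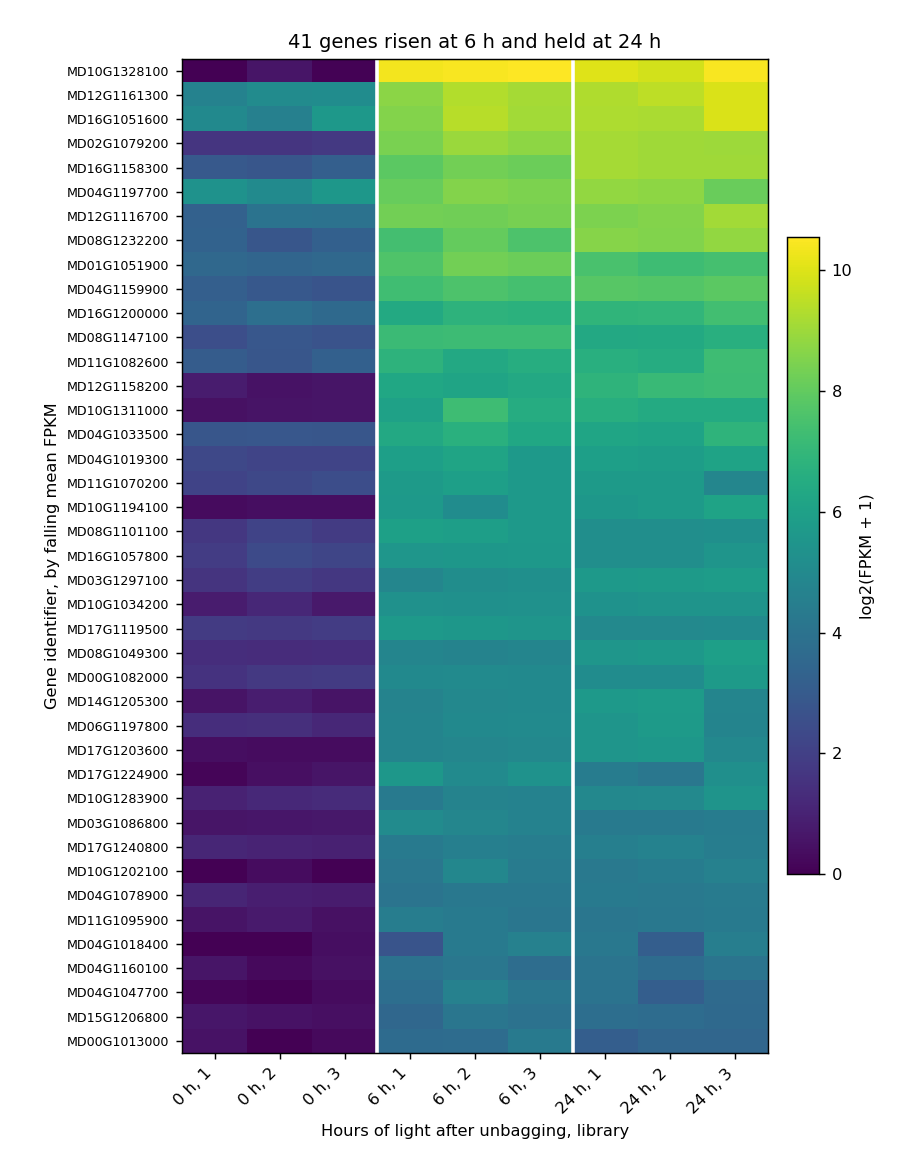
Level of each of the 41 members, as log2(FPKM + 1), in the 9 libraries, with genes ordered from the highest mean at the top. In every row the 3 libraries at 0 h are darker than the 6 libraries in light, and MD04G1197700, MD16G1051600 and MD12G1161300 are the brightest at 0 h.

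MD10G1328100 was the highest member and had the greatest rise of the 41. It was at 0, 0.511 and 0.0495 FPKM in the 0 h libraries, at 1317, 1393 and 1494 FPKM at 6 h, and at 1041, 907 and 1375 FPKM at 24 h. The gene was barely detected in the dark and among the most abundant in light: ordered by mean FPKM, it held place 29639 of the table at 0 h, place 18 at 6 h and place 31 at 24 h. Its 6 h and 24 h libraries overlapped. Over the 3 libraries at 0 h it had 13 reads, 12 of them in the second, against 93037 at 6 h, so its fold change rests on a handful of reads. With reads divided by the FPKM denominators, the 6 h libraries together stood 7128-fold above the 0 h libraries, with an exact 95% interval of 4168 to 13388 that covers counting error only. Without the second 0 h library 1 read was left at 0 h, the 0 h mean was 0.0248 FPKM in place of 0.187 FPKM, and the ratio was 59724 (exact 95% interval 10719 to 2359009), so 1 library sets the size of this fold. On the log2(FPKM + 1) scale its limma difference was 10.23 at 6 h (SE 0.182) and 9.87 at 24 h (SE 0.182).

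MD02G1079200 came next when genes are ordered by the smaller of both rises. It showed 2.08, 2.11 and 2.39 FPKM at 0 h, 342, 500.2 and 434 FPKM at 6 h, and 559, 533 and 505 FPKM at 24 h. Each 24 h library lay above each 6 h library, by a small margin. The limma differences from 0 h were 7.04 at 6 h and 7.38 at 24 h (SE 0.128 each). With 373 reads at 0 h and 72914 at 6 h, this gene's rise was measured far more firmly than that of MD10G1328100.

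The next most abundant members were already well expressed in the dark. MD12G1161300 was at 24.8, 32.7 and 34.3 FPKM at 0 h, at 421, 649.6 and 558 FPKM at 6 h, and at 633, 712 and 982 FPKM at 24 h. MD16G1051600 had 30.8, 23.4 and 47.8 FPKM at 0 h, 388, 675 and 544 FPKM at 6 h, and 608, 582 and 988 FPKM at 24 h. In both genes the first 6 h library was the lowest in light and the third 24 h library the highest, and the light times overlapped. Their limma differences were 4.10 and 4.61 for MD12G1161300 (SE 0.207) and 3.96 and 4.39 for MD16G1051600 (SE 0.295), at 6 h and 24 h in that order. MD04G1197700 had the highest 0 h level of all members, with 40.9, 32.3 and 46.4 FPKM. It reached 269, 386 and 353 FPKM at 6 h and 457, 434 and 277 FPKM at 24 h, a rise by limma of 3.04 and 3.24 (SE 0.214 each). In this gene the third 24 h library was the lowest of its time.

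MD16G1158300, the remaining one of the 6 most abundant members, kept climbing within the limit of the rule. Its values were 6.61, 6.11 and 8.15 FPKM at 0 h, 237, 317 and 289 FPKM at 6 h, and 556, 520.4 and 525 FPKM at 24 h. The 24 h libraries did not overlap the 6 h libraries. The limma difference was 5.15 at 6 h and 6.08 at 24 h (SE 0.127 each).

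**Figure D3:**
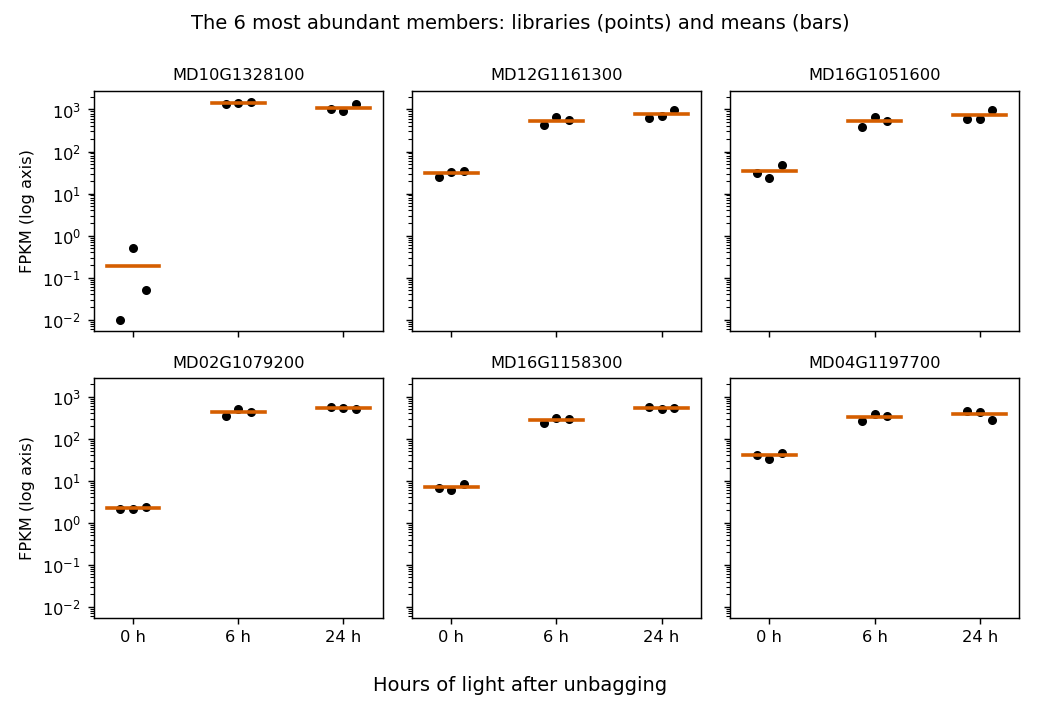
FPKM on a log axis in each library (points) and the mean of each time (lines) for the 6 members of highest mean level, at 0 h, 6 h and 24 h; a value of 0 is drawn at 0.01. MD10G1328100 was near 0 in the dark, while MD12G1161300, MD16G1051600 and MD04G1197700 started between 23.4 and 47.8 FPKM.

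Mean levels of the members ran from 0.0865 to 39.9 FPKM at 0 h, from 14.0 to 1402 FPKM at 6 h and from 9.38 to 1107 FPKM at 24 h. The rule itself bounds the levels in light from below, at 7 FPKM. At 0 h, 17 of the 41 were under 1 FPKM (4.23% of all tested genes were), 12 lay between 1 and 5 FPKM, and 12 were at 5 FPKM or more. The 17 lowest had a median of 27.5 FPKM at 6 h and 20.7 FPKM at 24 h. The 12 in the middle had medians of 40.0 and 40.5 FPKM, and the 12 highest had medians of 237 and 305 FPKM. Ratios of mean FPKM between 6 h and 0 h ranged from 18.6 to 7498 in the lowest class, from 13.4 to 194 in the middle one and from 8.43 to 40.4 in the highest one. The rule fixes part of both orders: a gene of high starting level has to reach a higher level to pass it, and a gene of low starting level has to show a larger ratio.

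Besides MD10G1328100 and MD02G1079200, MD16G1158300, MD12G1158200, MD10G1311000 and MD10G1194100 had rises of more than 5 units at both light times. MD12G1158200 was at 0.725, 0.431 and 0.501 FPKM at 0 h, at 75.8, 70.4 and 81.5 FPKM at 6 h, and at 115, 143 and 149 FPKM at 24 h. The times did not overlap, and its 0 h level rests on 18 reads. MD10G1194100 had 0.241, 0.295 and 0.305 FPKM at 0 h, 51.3, 34.4 and 49.1 FPKM at 6 h, and 46.8, 52.4 and 68.6 FPKM at 24 h. MD10G1311000 stood at 0.395, 0.457 and 0.4999 FPKM at 0 h, at 64.1, 152 and 91.3 FPKM at 6 h, and at 96.4, 85.7 and 85.7 FPKM at 24 h. The 6 h libraries of MD10G1311000 spread 2.37-fold, so the order of its light times is unknown. For most of the set the rise was smaller: in 26 of the 41 members the smaller of both rises was under 4 units, in 9 it was between 4 and 5, and in 6 it was at least 5.

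Low counts at 0 h limit what can be said of the starting point of some members. Over the 3 dark libraries 8 members had fewer than 30 reads, 4 had a library with no read, and MD10G1202100 had 2 reads in all. Its reads at 6 h over those at 0 h, divided by the FPKM denominators, gave a ratio of 237 with an exact 95% interval of 65.1 to 1959. Both of these 0 h reads were in the second library, and without it the gene had no read at 0 h and stood at least 102-fold higher at 6 h, taking 3 reads over the remaining 0 h libraries as the floor. The 8 members with few reads had a median coefficient of variation of 97.5% at 0 h, against 16.2% in the other 33. In light no member was thinly covered, and the lowest library held 94 reads of its gene.

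The rule allowed up to 1 unit between the light times, and the members used the room in both directions. The mean was higher at 24 h than at 6 h in 23 genes and lower in 18. In 14 members every 24 h library lay above every 6 h library, in 7 every one lay below, and in 20 the libraries overlapped; among all tested genes 30.8% were separated upwards and 28.5% downwards. The direction depends on how the libraries are scaled. With each library's reads in genes as the denominator, 20 members had the higher mean at 24 h and 21 the lower. On that scale 9 were separated upwards and 11 downwards. The shares of all tested genes were not counted on it, so nothing particular to the members follows. The comparison as a whole shifted: its median over the tested genes changed by -0.13 log2 units, and that for 24 h against 0 h by -0.18. A median difference of 0.12 between 24 h and 6 h in the members, on the deposited scale, therefore lies within that shift.

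On the scale of the rule, MD08G1232200 and MD08G1049300 gained most between the light times. MD08G1232200 was at 9.002, 6.09 and 8.40 FPKM at 0 h, at 168, 262 and 192 FPKM at 6 h, and at 390.5, 378 and 456 FPKM at 24 h. MD08G1049300 was at 1.61, 1.5001 and 1.62 FPKM at 0 h, at 26.8, 25.2 and 26.7 FPKM at 6 h, and at 45.3, 48.1 and 60.4 FPKM at 24 h. Both were separated without overlap at all times, and their limma differences between 24 h and 6 h were 0.99 (SE 0.176) and 0.93 (SE 0.107). MD08G1147100 and MD01G1051900 lost most on that scale. MD08G1147100 had 4.73, 6.27 and 5.44 FPKM at 0 h, 145, 149.8 and 149 FPKM at 6 h, and 80.7, 83.6 and 98.6 FPKM at 24 h, with a limma difference of -0.75 (SE 0.106) between the light times. MD01G1051900 had 10.9, 9.89 and 10.9 FPKM at 0 h, 201, 312 and 290.2 FPKM at 6 h, and 181, 152 and 171 FPKM at 24 h, with a limma difference of -0.65 (SE 0.151); by limma, MD17G1224900 lay between them with -0.71 (SE 0.253). The 24 h libraries of MD08G1147100 and MD01G1051900 were all below their 6 h libraries and all far above those in the dark.

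**Figure D4:**
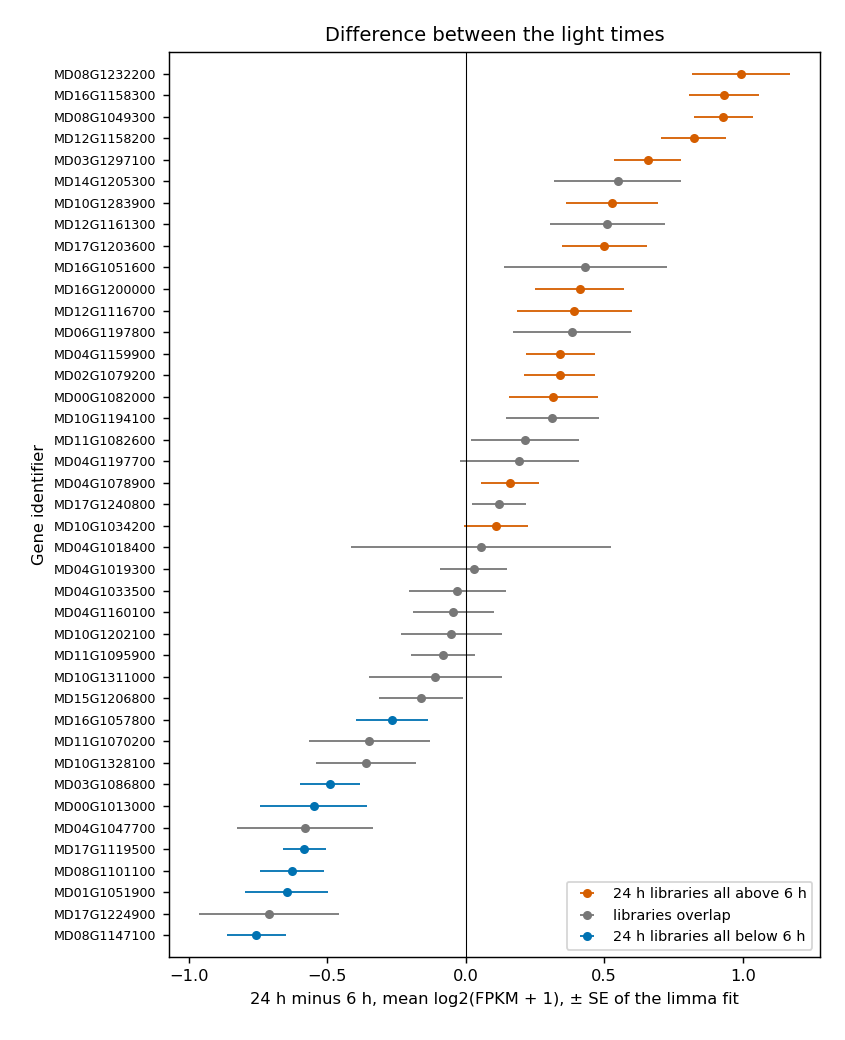
Limma difference between 24 h and 6 h in mean log2(FPKM + 1) for each member, with its SE, sorted from the greatest at the top. Genes run without a gap from 0.99 in MD08G1232200 to -0.75 in MD08G1147100, and colour marks the 14 genes whose 24 h libraries were all higher, the 7 whose 24 h libraries were all lower, and the 20 that overlapped.

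The limits of the rule cut through genes of like behaviour. On the scale of the rule, MD16G1200000 with 3.03 and MD04G1197700 with 3.04 were just inside the limit at 6 h, and MD00G1080300 with 2.98 and MD14G1235300 with 2.94 just outside. MD16G1200000 was at 11.4 ± 1.85 FPKM at 0 h, 100.3 ± 14.3 FPKM at 6 h and 134 ± 25.9 FPKM at 24 h, and the excluded MD14G1235300 at 8.58 ± 0.635, 72.6 ± 2.99 and 108 ± 12.5 FPKM (SD, n = 3 each). At 24 h the nearest members were MD00G1013000 with 3.09 and MD16G1057800 with 3.15, and the nearest genes left out were MD09G1069500 with 2.87 and MD09G1080200 with 2.81. MD16G1057800 had 3.49 ± 0.745 FPKM at 0 h, 46.8 ± 1.80 FPKM at 6 h and 38.9 ± 5.06 FPKM at 24 h (SD, n = 3 each). For the difference between the light times, MD08G1232200 with 0.97 and MD08G1049300 with 0.94 were inside and MD15G1110200 with 1.03 and MD05G1207000 with 1.18 outside. The members of lowest mean level, MD00G1013000 and MD15G1206800, still averaged 8.01 and 8.87 FPKM over the 9 libraries. MD15G1206800 had 0.540, 0.438 and 0.332 FPKM at 0 h, 10.6, 16.7 and 14.6 FPKM at 6 h, and 13.1, 12.4 and 11.1 FPKM at 24 h.

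Replicate spread within a time, which the rule did not use, was wider in the members than in all tested genes at 0 h and 6 h. The sets were not matched for level: at 0 h the members had a median of 1.58 FPKM and 152 reads, against 8.23 FPKM and 722 reads. Whether level or depth had a part in the wider spread was not tested. The median SD of log2(FPKM + 1) was 0.172 at 0 h, 0.213 at 6 h and 0.191 at 24 h in the members, and 0.110, 0.0984 and 0.192 in all tested genes. These SDs were 0.105, 0.191 and 0.290 in the 15 genes that went on rising, and 0.168, 0.210 and 0.445 in the 14 that came down in part. At 6 h the members' median coefficient of variation of the FPKM was 14.6%, against 7.99% in all tested genes. It was 13.5% in the 15 and 14.5% in the 14, so the wide spread at 6 h was not particular to the members. By the largest SD within 1 time, MD04G1018400, MD10G1311000 and MD17G1224900 varied most; with all 3 times pooled, MD16G1051600 came after MD04G1018400 and ahead of the other two. MD04G1018400 was at 0, 0 and 0.324 FPKM at 0 h, at 5.69, 19.5 and 23.5 FPKM at 6 h, and at 17.6, 7.91 and 21.8 FPKM at 24 h. Its first 6 h library and second 24 h library were low, and its difference between the light times had an SE of 0.470. In MD17G1224900 the values were 0.0987, 0.345 and 0.510 FPKM at 0 h, 46.7, 32.5 and 40.7 FPKM at 6 h, and 20.8, 17.2 and 37.4 FPKM at 24 h. Here the third 24 h library stood apart from the other two of its time.

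Some of this spread was shared by many members in the same library. The first 6 h library was the lowest of its time in 25 of the 41 members (61.0%), as it was in 34.0% of all tested genes, and its members summed to 5133 FPKM, against 6461 and 6024 FPKM in the other 6 h libraries. Its place did not depend on the scaling, with 25 members again the lowest when each library's reads in genes were the denominator, against 28.8% of all tested genes. The second 6 h library lay as far off the other way: it was the highest of its time in 21 members (51.2%), against 33.5% of all tested genes. The third 24 h library was the highest of its time in 27 members (65.9%), as it was in 46.2% of all tested genes. On the scale of reads in genes this count was 15, against 26.5% of all tested genes. That library had 19.5 M (mega) reads in genes but the smallest FPKM denominator, 16.2 M, so its deposited values are high for its reads. In the first and second 24 h libraries reads in genes also exceeded the denominator, by less (17.3 M over 16.9 M and 18.0 M over 17.6 M). In every library of 0 h and 6 h they fell short of it, so this feature runs with time. Whether depth or sampling had a part in these shifts was not tested.

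The third 24 h library was at least 1.5 times the mean of the other 24 h libraries in 6 of the 41 members, against 8.89% of all tested genes. It was at most that mean divided by 1.5 in 5 members, against 17.9%. On the scale of reads in genes the counts were 1 and 5, where no share of all tested genes was counted. The 5 low members on the deposited scale, named after their values were seen, were MD04G1197700, MD06G1197800, MD11G1070200, MD14G1205300 and MD17G1203600. MD14G1205300 was at 51.7, 53.8 and 26.9 FPKM at 24 h, after 25.3, 29.7 and 30.9 FPKM at 6 h. MD06G1197800 was at 44.5, 51.9 and 25.9 FPKM at 24 h, after 26.3, 31.5 and 31.8 FPKM at 6 h. In both genes the third 24 h library was at the level of 6 h, while the others had moved above it. MD11G1070200 was at 53.1, 53.0 and 27.9 FPKM at 24 h and at 52.4, 61.6 and 51.1 FPKM at 6 h. Such departures of the third 24 h library were found throughout the table and are not particular to the members.

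**Figure D5:**
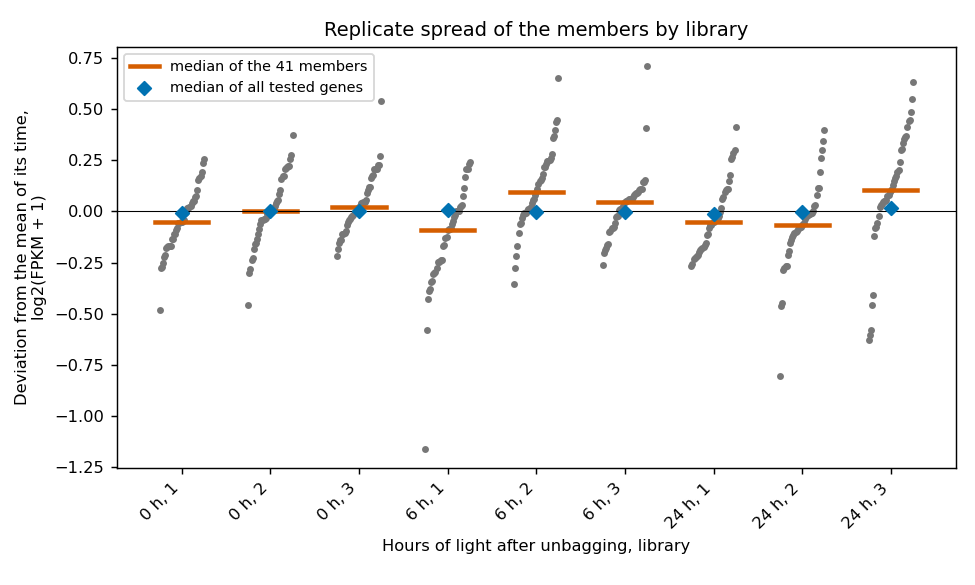
Deviation of each member from the mean of its time in log2(FPKM + 1), by library (grey points), with the median of the 41 members (line) and of all tested genes (diamond). The line lies at -0.09 in the first and 0.09 in the second 6 h library, and at 0.11 in the third 24 h library, while the diamonds stay between -0.01 and 0.02.

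Transcript length, as it enters the FPKM, had about the same middle in the members as in all tested genes. Their median length was 1526 bases (quartiles 1190 and 2017), against 1533 bases (quartiles 1003 and 2207) in all tested genes, and they ran from 405 bases in MD10G1202100 to 4145 bases in MD10G1034200. Genes under 1000 bases made up 21.95% of the members and 24.9% of all tested genes. The 15 genes that went on rising had a median of 1567 bases, and the 14 that had come down in part by 24 h a median of 998.5 bases. These sets are small, and the lengths were not tested.

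The digits before the letter G in an apple locus identifier are by convention the chromosome, except for 00, which names none. The members were spread over 14 of the 18 values in the table, and 2 of the 41 had the value 00. The value 04 was the most frequent, with 8 of the 41 members (19.5%), while 4.77% of all tested genes carry it. It was singled out after the member counts were seen, and its share was not tested. Value 10 had 6 members (14.6%) against 6.57% of tested genes, and values 05, 07, 09 and 13 had none. Among the 29 genes that rose by at least 3 units at both light times without being members, 5 (17.2%) also had the value 04. These 29 were picked by the same limits on the rises, so they give no separate support. The much larger set of 981 other genes that limma called higher at both light times had 42 (4.28%), close to the background.

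Only a single pair of members had neighbouring identifiers, MD04G1159900 and MD04G1160100, whose numbers differ by 200. MD04G1159900 was at 8.17, 6.49 and 5.60 FPKM at 0 h, at 159, 193 and 171 FPKM at 6 h, and at 220.5, 208 and 234 FPKM at 24 h. MD04G1160100 was at 0.531, 0.202 and 0.382 FPKM at 0 h, at 14.6, 17.4 and 12.7 FPKM at 6 h, and at 15.5, 12.2 and 15.5 FPKM at 24 h. Both were far higher in light, and MD04G1159900 was the more abundant at each time. The gene listed between them, MD04G1160000, did not share the rise: it had 2.11, 1.47 and 5.21 FPKM at 0 h, 1.59, 3.61 and 1.10 FPKM at 6 h, and 5.04, 3.01 and 7.65 FPKM at 24 h, and limma called it at neither light time.

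Next to the members in identifier order stood 51 other tested genes. Limma called 6 of them higher at 6 h (11.8%, against 9.36% of all tested genes), 9 higher at 24 h (17.6%, against 11.9%) and 2 higher at both times (3.92%, against 4.03%). These 2 genes, named after their values were seen, were MD04G1019400 beside MD04G1019300 and MD04G1197600 beside MD04G1197700. MD04G1019400 was at 0.697, 0.995 and 0.557 FPKM at 0 h, at 10.6, 12.9 and 10.0 FPKM at 6 h, and at 28.6, 29.0 and 34.5 FPKM at 24 h, with limma differences from 0 h of 2.80 and 4.18 (SE 0.133 each), and its 24 h libraries were all above its 6 h libraries. MD04G1019300 had 3.60 ± 0.200 FPKM at 0 h, 61.1 ± 10.5 FPKM at 6 h and 61.8 ± 5.09 FPKM at 24 h (SD, n = 3 each). MD10G1328000, the gene listed before MD10G1328100, was at 3.86 FPKM at 0 h, 21.2 FPKM at 6 h and 4.76 FPKM at 24 h on average, and limma called it higher at 6 h alone.

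The 20 members not described by the rule for named genes had mean levels of 0.0865 to 12.8 FPKM at 0 h, 17.0 to 317 FPKM at 6 h and 11.6 to 424 FPKM at 24 h. Their limma differences from 0 h ran from 3.24 to 4.57 at 6 h and from 3.15 to 4.97 at 24 h. Of these genes 12 had a higher and 8 a lower mean at 24 h than at 6 h. The highest of them, MD12G1116700, had 12.8 ± 3.61 FPKM at 0 h, 317 ± 13.2 FPKM at 6 h and 424 ± 100.9 FPKM at 24 h (SD, n = 3 each). MD04G1033500 had nearly the same mean FPKM at both light times on the deposited scale, with 6.11 ± 0.118 FPKM at 0 h, 86.0 ± 13.6 FPKM at 6 h and 85.7 ± 24.9 FPKM at 24 h (SD, n = 3 each). The closest replicates were those of MD17G1119500, with 2.53 ± 0.132 FPKM at 0 h, 46.8 ± 2.63 FPKM at 6 h and 30.9 ± 0.923 FPKM at 24 h (SD, n = 3 each).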

How the data were processed

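RNA of apple peel was sequenced in 9 libraries, 3 per time; the labels' protocols name Trizol extraction and Illumina mRNA libraries. The authors deposited FPKM per gene, made with HISAT2 and Cufflinks per the submitters' processing notes; no source used here states their versions, the genome build, the annotation or the strand setting. The 41 genes, the comparisons and the tests were chosen with earlier results of these data known. Whole reads and gene lengths were worked out from the steps of the FPKM. For all 37142 genes above 0 they rebuilt the deposited values to a relative difference of 6.69e-08. That match alone does not prove them, since a length and reads divided by a shared factor give the same values. In simulated data 3457 of 3461 genes came out right, and only genes with reads in most libraries were scored. The libraries held 15331227 to 19495791 reads in genes, over FPKM denominators of 16.2 to 19.0 M (mega). Reads and read pairs cannot be told apart here, and intervals cover counting error only. One limma model (limma 3.58.1, R 4.3.3) with a mean per time, 6 residual degrees of freedom and trended variances was fitted to log2(FPKM + 1) of 25362 genes; the pseudocount of 1 makes differences of low genes smaller. A separate fit of 6 h against 0 h, and not this model, was checked on simulated libraries, with no 24 h libraries among them. Named were the 6 members of highest mean, the 6 with the largest smaller rise, the 2 highest and 2 lowest in the difference between light times, the 3 most variable, the 3 highest at 0 h, neighbouring members, and the 2 genes on each side of each limit. Scaling by reads in genes, and the read ratios without the second 0 h library, were added after seeing the data.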

Additional observations from a re-analysis of the deposited data

How the results depend on the processing

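The number of genes that met the rule was 41. It moved most with the pseudocount (82 genes with 0.1, 15 with 5) and with the limits themselves (73 with a rise of at least 2.5, 25 with one of at least 3.5, and 25 with a difference between the light times under 0.5). All 41 were among the 82, and by construction among the 73. Other averaging and scalings gave 37 to 41 genes, and leaving out 1 library at a time 37 to 43. A mean of at least 5 FPKM left 41, and dropping the filter could change nothing. Of the 41, 34 met the rule without each library in turn, and 9 under all 21 settings. Among the others, MD17G1224900 was lost without the third 24 h library, MD00G1013000 without the second 0 h library, MD08G1049300 without the first 24 h library and MD16G1158300 without the second 6 h library. MD04G1197700 was lost without the second library of 0 h or of 6 h, MD08G1232200 without the second 6 h or the first or second 24 h library, and MD16G1200000 without the first 0 h library, the second 6 h library or the third 6 h library. Genes called by limma numbered 3939, 5014 and 4173 at 6 h against 0 h, 24 h against 0 h and 24 h against 6 h, and 2046, 2697 and 2398 with a pseudocount of 5. With the replicate number as a block they were 3941, 5019 and 4175. Same-numbered libraries deviated together at r = -0.06 to 0.08 across genes, and differently numbered ones at r = -0.097 to 0.095. The labels do not say whether the numbers pair libraries, and these correlations cannot settle it. Of the calls at 24 h against 0 h 60.03% were higher, against 45.9% on the scale of reads in genes, 47.99% on that of summed FPKM and 73.3% with a pseudocount of 5. Leaving out 1 library gave 3890 to 3989, 4619 to 5378 and 3938 to 4485 calls. The members' median rise at 6 h (3.95) was 4.67 with a pseudocount of 0.1, 2.78 with 5, 4.05 with medians of the libraries and 3.86 after quantile normalization, and 3.82 to 4.12 without 1 library. That at 24 h (3.92) was 4.87 and 2.99 with these pseudocounts, 3.77 on the scale of summed FPKM, 3.72 after quantile normalization and 3.75 on that of reads in genes, and 3.74 to 3.97 without 1 library. Their median difference between 24 h and 6 h (0.12) was -0.0334 on the scale of summed FPKM, 0.0072 after quantile normalization and -0.0175 on that of reads in genes, and 0.07 to 0.18 without 1 library. The deposited scale decides that sign, and a larger pseudocount shrinks differences by construction. Of 243 differences of named genes recomputed under the 3 other scalings, 27 moved by more than the spread between replicates, as did 81 of 162 under the 2 other pseudocounts. Depth limits the level in the dark of the 8 members with under 30 reads there.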
